A study of Homo sapiens with 21 samples.

Results

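C3A cells, a clone of the human hepatoma line HepG2, were exposed for 48 h to a mixture of AMPA at 34 µM (3.7 µg/mL) and 2,4-D at 2.5 µM (0.56 µg/mL) and compared with unexposed C3A cells by RNA sequencing. AMPA (aminomethylphosphonic acid) is a breakdown product of the herbicide glyphosate, and 2,4-D is an auxin-type herbicide. Per the labels, each concentration was 1000-fold below the IC50. The mixture accounts for 3 of the 21 libraries of the series and the unexposed cells for 6. For comparison, 3 libraries each came from cells given AMPA alone at 34 µM, 2,4-D alone at 2.5 µM, or glyphosate at 5.6 µM (0.95 µg/mL) together with 2,4-D at 2.5 µM, all for 48 h. A further 3 libraries, from cells given glyphosate alone at 5.6 µM for 48 h, entered only the shared estimate of spread and the plot of gene classes by library. Every group was labelled WT and grown in the same serum-supplemented medium, and the treatment of the unexposed cells is given as none. Levels are FPKM, reads scaled to gene length and library depth. A gene was included when at least 3 of the 9 libraries compared had an FPKM of 1 or more, which held for 12664 of 28808 genes, among them 10368 protein-coding ones. Nothing in the labels tells whether the replicates of a group were grown apart, and p-values therefore measure only a spread between libraries that may be technical.

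Hepatocytes make most plasma proteins, store and release glucose, dispose of ammonia as urea, and detoxify foreign compounds with cytochrome P450 and conjugating enzymes under the control of nuclear receptors. Several stress programmes act in all cells: heat shock factor raises chaperones, the hypoxia-inducible factors raise glycolytic enzymes and angiogenic signals, ATF4 raises genes of amino acid supply, and NRF2 raises antioxidant genes. Serum and growth factors act through the ERK kinases, SRF and the YAP and TEAD factors on immediate early genes and on genes of adhesion and the actin cytoskeleton.

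Reads recovered from the FPKM values numbered 17.41 to 19.77 M in the unexposed libraries and 15.29 to 18.52 M in the mixture libraries. All 20 hepatocyte markers passed the filter, and their summed FPKM was 10210 to 15600 in unexposed and 15500 to 16470 in mixture libraries. COL1A1, PECAM1, VWF, CD68 and KRT7, defining markers of fibroblasts, endothelium, macrophages and bile duct cells, reached at most 0.150 FPKM in any of the 9 libraries. Other members of these lists passed the filter, with SPP1 and EPCAM of the bile duct list among them. The summed levels of the other marker lists were 16.2 to 24.6 unexposed and 15.9 to 16.4 in the mixture for fibroblasts (0 of 2 tested members higher, 1 lower), 4.54 to 7.58 and 8.90 to 10.9 for endothelium (2 of 2 higher), 332 to 623 and 550 to 600 for leukocytes (2 of 4 higher) and 391 to 774 and 539 to 575 for bile duct cells (2 of 5 higher). The part of such cells in the results was not tested. Unexposed replicates 1 to 3 and 4 to 6 stood apart. The mean squared difference per gene between them was 33.3 to 46.5 times that from read counting alone over 10987 genes, against 3.78 to 6.53 within either set. From mixture libraries the multiple was 72.7 to 94.5 for replicates 1 to 3 and 35.7 to 54.7 for replicates 4 to 6, and the second range overlaps that between the sets. For the median gene the multiple was 8.47 to 11.7 between the sets. From mixture libraries to replicates 4 to 6 the median was 13.9 to 21.6, with no overlap. The labels name no batch for these sets and do not say whether exposed and unexposed cells were handled together, so a difference in handling and the exposure cannot be told apart. Among the mixture libraries, replicate 2 lay 8.28 and 7.33 times from replicates 1 and 3, which lay 3.65 times from each other.

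Against all 6 unexposed libraries, limma called 3420 genes higher (27.0% of those tested) and 3264 lower (25.8%) in the mixture at an adjusted p under 0.05. Most changes were small, and 270 genes changed by at least 2-fold in FPKM + 1. The 3 mixture libraries lay above all 6 unexposed ones for 2757 genes (21.8%) and below them for 2420 (19.1%). With values rescaled to TPM, which moves the median of all genes by -0.11 on the log2 scale, the calls were 2209 higher (32.8% of calls, against 51.2% on FPKM) and 4533 lower. Against replicates 1 to 3 alone 7354 genes (58.1%) were called, 3759 higher and 3595 lower, and against replicates 4 to 6 alone 6706 (53.0%), 3484 higher and 3222 lower. The same direction was called against both sets for 2590 higher and 2309 lower genes, and opposite directions for 252. In whole-culture RNA, fewer cells of a type and less RNA per cell cannot be told apart.

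**Figure D1:**
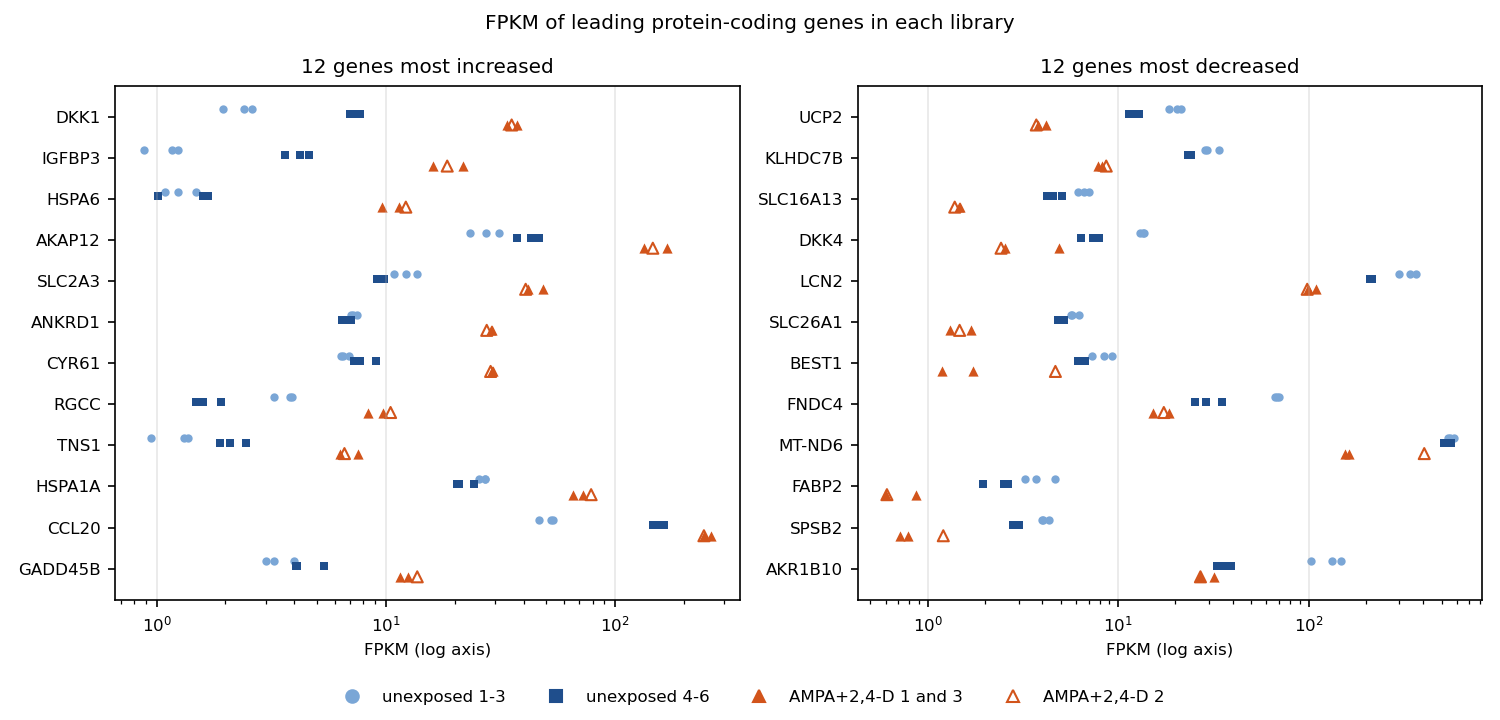
FPKM on a log axis of the 12 most increased and 12 most decreased protein-coding genes in each library; circles and squares are unexposed replicates 1 to 3 and 4 to 6, filled triangles mixture replicates 1 and 3, and open triangles mixture replicate 2. The 3 mixture libraries lie beyond all 6 unexposed ones for every gene shown, the condition by which the genes were picked, and in BEST1 and MT-ND6 replicate 2 lies nearer to the unexposed libraries.

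Among the protein-coding genes with the largest increases were DKK1 and IGFBP3, both secreted regulators of signalling. DKK1 (ENSG00000107984, chromosome 10, 52314296 to 52318042, GRCh38), a secreted inhibitor of WNT receptors, had 1.94 (lowest), 4.82 (median) and 7.72 (highest) FPKM in unexposed cells and 33.8, 35.5 and 37.6 in mixture replicates 1, 2 and 3. Its log2 change was 2.81 ± 0.29 (SE, limma adjusted p 4.11e-07). The unexposed sets themselves differed, with means of 2.32 and 7.29, so the change was 3.47 against replicates 1 to 3 and 2.14 against replicates 4 to 6. IGFBP3 (ENSG00000146674, chromosome 7, 45912245 to 45921874), a carrier of insulin-like growth factors, had 0.879, 2.45 and 4.64 FPKM unexposed and 16.1, 18.6 and 21.7 in the mixture. Its change was 2.58 ± 0.29 (limma adjusted p 1.17e-06), again larger against replicates 1 to 3 (3.24) than against 4 to 6 (1.93). IGFBP2, of the same family, had 0.135, 0.339 and 0.598 FPKM unexposed and 1.99, 2.45 and 2.28 in the mixture. It passed the filter only through the mixture libraries, so its place among the tested genes rests on its rise. In contrast DKK4, a relative of DKK1 and a target of WNT signalling, fell: 6.37, 10.5 and 13.6 FPKM unexposed and 4.89, 2.42 and 2.54 in the mixture. Of 13 tested secreted WNT and IGF regulators 4 were called higher and 3 lower, with a median log2 change of 0.11, shares near those of all genes.

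Of 14 genes downstream of beta-catenin 5 were called higher and 3 lower, with a median of -0.07, also near the shares of all genes. The counts were 3 and 6 against replicates 4 to 6 and 2 and 6 on TPM. RHBG, an ammonium transporter of hepatocytes around the central vein, fell from 18.3, 20.1 and 21.1 to 11.7, 11.8 and 11.6 FPKM. NOTUM, a secreted enzyme that inactivates WNT ligands, fell by 0.38 on the log2 scale. TBX3 and NKD1, a transcription factor and an intracellular WNT inhibitor, rose by 0.47 and 0.41.

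YAP and TEAD targets rose as a group: 13 of 18 were called higher and 1 lower, with a median of 0.43. Against replicates 1 to 3 the counts were 13 and 2, and against 4 to 6 they were 12 and 2. ANKRD1 (chromosome 10, 90912096 to 90921276), a nuclear and sarcomeric protein induced by stretch, had 6.46, 7.05 and 7.54 FPKM unexposed and 28.8, 27.6 and 29.2 in the mixture. The groups were far apart and both sets alike, with a change of 1.88 ± 0.07 (limma adjusted p 3.34e-12) against all 6 libraries, 1.84 against replicates 1 to 3 and 1.92 against 4 to 6. CYR61 (chromosome 1, 85580761 to 85583962), a secreted matrix protein that binds integrins, had 6.39, 7.10 and 9.08 FPKM unexposed and 29.01, 28.72 and 29.38 in the mixture. GADD45B, a stress-induced signalling protein, rose by 1.47 ± 0.10, and AXL, a receptor tyrosine kinase, by 1.13 ± 0.09. AKAP12 (chromosome 6, 151239999 to 151358557), a scaffold for protein kinases A and C, was among the most abundant of the leading genes. It had 23.3, 34.2 and 46.8 FPKM unexposed and 134, 147 and 170 in the mixture, a change of 2.11 ± 0.17.

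Of the SRF targets and genes of the actin cytoskeleton, 12 of 26 were called higher and 2 lower, with a median of 0.16. On TPM the counts were 10 and 7. TPM2, a tropomyosin that coats actin filaments, rose from 2.26, 2.67 and 2.97 to 6.34, 7.73 and 6.73 FPKM, and TAGLN, an actin-bundling protein, by 0.66 ± 0.08. TNS1, which links actin to focal adhesions, had 0.947, 1.63 and 2.45 FPKM unexposed and 6.32, 6.61 and 7.59 in the mixture.

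Immediate early genes and the feedback genes of the ERK pathway rose together. Of 21 immediate early genes 17 were called higher and 1 lower, with a median of 0.60, and of 17 ERK feedback genes 14 were higher and 2 lower, with a median of 0.59. IER3 belongs to both lists. KLF10, a growth-restraining transcription factor, had 5.42, 6.75 and 8.33 FPKM unexposed and 19.56, 18.98 and 18.48 in the mixture. JUNB, a subunit of AP-1, rose from 7.42, 8.13 and 8.88 to 15.2, 21.3 and 16.6 FPKM. MYC was the 1 member called lower, at 54.8, 56.3 and 57.1 FPKM unexposed and 49.3, 49.7 and 48.2 in the mixture. SPRY4, an inhibitor of ERK signalling, had 10.2, 10.7 and 11.6 FPKM unexposed and 23.9, 24.4 and 25.1 in the mixture. This change of 1.10 ± 0.04 (limma adjusted p 3.34e-12) was 1.12 and 1.09 against the 2 unexposed sets. DUSP5, a phosphatase of nuclear ERK, rose by 1.29 ± 0.10 and HBEGF, a ligand of the EGF receptor, by 1.06 ± 0.08.

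BMP and TGF-beta response genes rose in 12 of 17 tested members and fell in 1, with a median of 0.48. ID2, an inhibitor of differentiation factors, rose from 38.9, 43.5 and 50.7 to 116, 110 and 122 FPKM, a change of 1.36 ± 0.07. ID1, a related factor and BMP target, rose by 0.44 ± 0.04. HAMP, which encodes the iron hormone hepcidin and is a BMP target in liver, had 2.02, 3.09 and 3.30 FPKM unexposed and 7.41, 5.94 and 6.04 in the mixture.

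**Figure D2:**
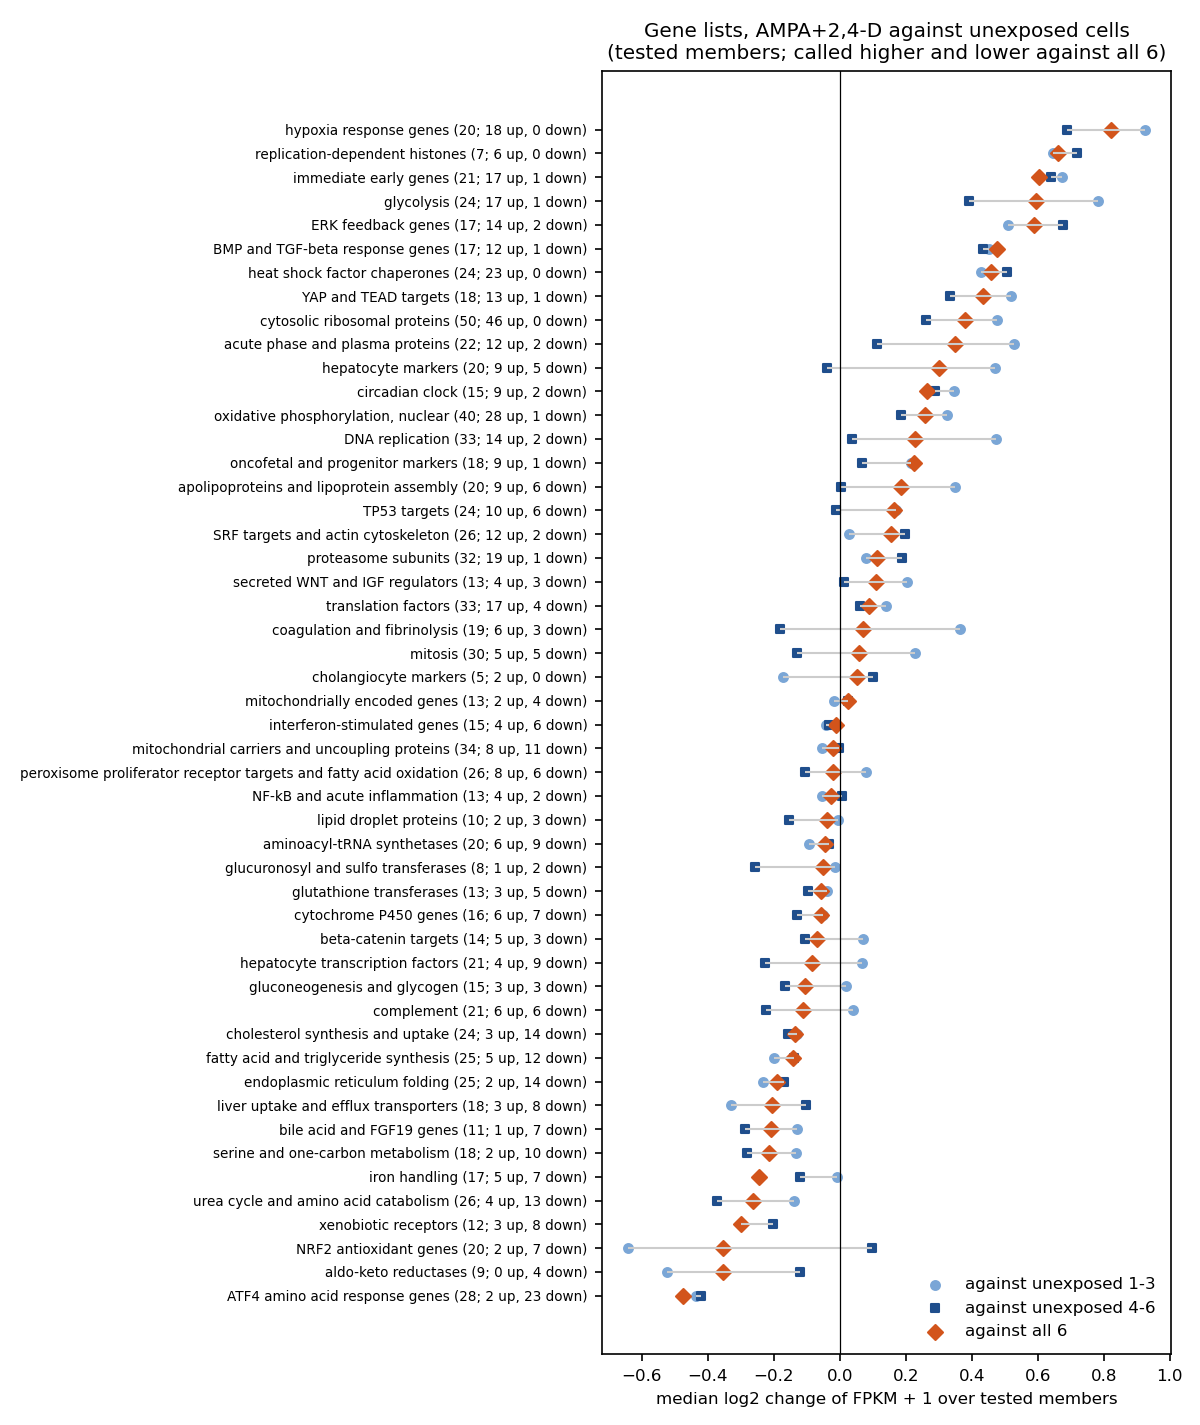
Median log2 change of FPKM + 1 over the tested members of each gene list with at least 5 tested members, against all 6 unexposed libraries (diamonds) and against replicates 1 to 3 (circles) and 4 to 6 (squares); labels give the tested members and those called higher and lower. Heat shock, immediate early and ATF4 medians differ little between the unexposed sets, whereas the NRF2 median is -0.64 against the first and 0.10 against the second.

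Chaperone genes under heat shock factor rose almost throughout: 23 of 24 were called higher and 0 lower, where 27.0% of all genes were higher. Their median log2 change was 0.46, and 0.43 and 0.51 against the 2 unexposed sets. The exception was DNAJB4, whose 4.12, 6.24 and 10.6 FPKM unexposed enclosed its 6.83, 5.38 and 6.42 in the mixture. HSPA6 (ENSG00000173110, chromosome 1, 161524540 to 161526910), a strictly stress-induced HSP70, had 1.01, 1.37 and 1.69 FPKM unexposed and 9.62, 12.3 and 11.4 in the mixture, or 402 to 487 reads. Its change was 2.36 ± 0.16 (limma adjusted p 3.28e-09), with 2.41 and 2.32 against the unexposed sets. HSPA1A, the main inducible HSP70, had 20.42, 24.97 and 27.2 FPKM unexposed and 65.7, 78.9 and 73.0 in the mixture, and HSPA1B 15.9, 21.6 and 25.3 against 50.7, 53.4 and 56.1. HSPA1A and HSPA1B are near-identical copies, so the division of reads between them is uncertain. HSP90AA1, a chaperone of kinases and receptors already abundant in unexposed cells, had 99.2, 106 and 113 FPKM unexposed and 209, 198 and 215 in the mixture. The co-chaperone genes DNAJB1 and DNAJA1 rose by 0.87 ± 0.04 and 0.74 ± 0.05.

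The promoters of the 3 heat shock genes with the largest increase are shown because they carry the core of the heat shock element, GAANNTTC, which reads the same on both strands. RefSeq sequences on GRCh38.p14 of the 250 bases before each start follow, all on the plus strand, at chr1:161524290-161524539 for HSPA6, chr6:31815293-31815542 for HSPA1A and chr6:31827488-31827737 for HSPA1B; capitals mark the core.
HSPA6: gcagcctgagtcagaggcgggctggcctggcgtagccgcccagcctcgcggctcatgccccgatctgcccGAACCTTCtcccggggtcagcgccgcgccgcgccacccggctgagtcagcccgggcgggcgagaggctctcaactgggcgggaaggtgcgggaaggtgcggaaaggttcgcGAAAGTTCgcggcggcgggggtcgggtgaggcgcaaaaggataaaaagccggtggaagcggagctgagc
HSPA1A: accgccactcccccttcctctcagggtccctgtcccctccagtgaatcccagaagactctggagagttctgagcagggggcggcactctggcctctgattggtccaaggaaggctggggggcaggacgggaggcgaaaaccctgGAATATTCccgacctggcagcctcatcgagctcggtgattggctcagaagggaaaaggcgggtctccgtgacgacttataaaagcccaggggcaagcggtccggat
HSPA1B: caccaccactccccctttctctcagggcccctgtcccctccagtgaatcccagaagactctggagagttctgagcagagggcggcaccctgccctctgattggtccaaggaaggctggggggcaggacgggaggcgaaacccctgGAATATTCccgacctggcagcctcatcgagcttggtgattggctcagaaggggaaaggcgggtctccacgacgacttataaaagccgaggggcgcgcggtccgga
HSPA6 holds 2 copies and the HSPA1 genes 1 each. Over the list, 8 of the 22 members with a promoter entry (36.4%) held the core, against 5.85% of 27305 promoters of this length and 3.73% of the 8578 promoters of tested genes. The hypoxia element ACGTG, searched on both strands, was in 8 of 16 promoters of the hypoxia list and 10 of 22 of the glycolysis list (45.5%), against 18.7% of all and 24.1% of those of tested genes. CCACG, part of the endoplasmic reticulum stress element, was in 70.8% of promoters of the folding list, against 33.3% of all and 45.6% of those of tested genes. The TEAD element GGAATG was in 2 of 12 promoters of its list (16.7%, 11.9% of all) and the cAMP element TGACGTCA in 2 of 16 of the immediate early genes (12.5%, 1.77% of all). These matches are letters in a window and show no binding.

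**Figure D3:**
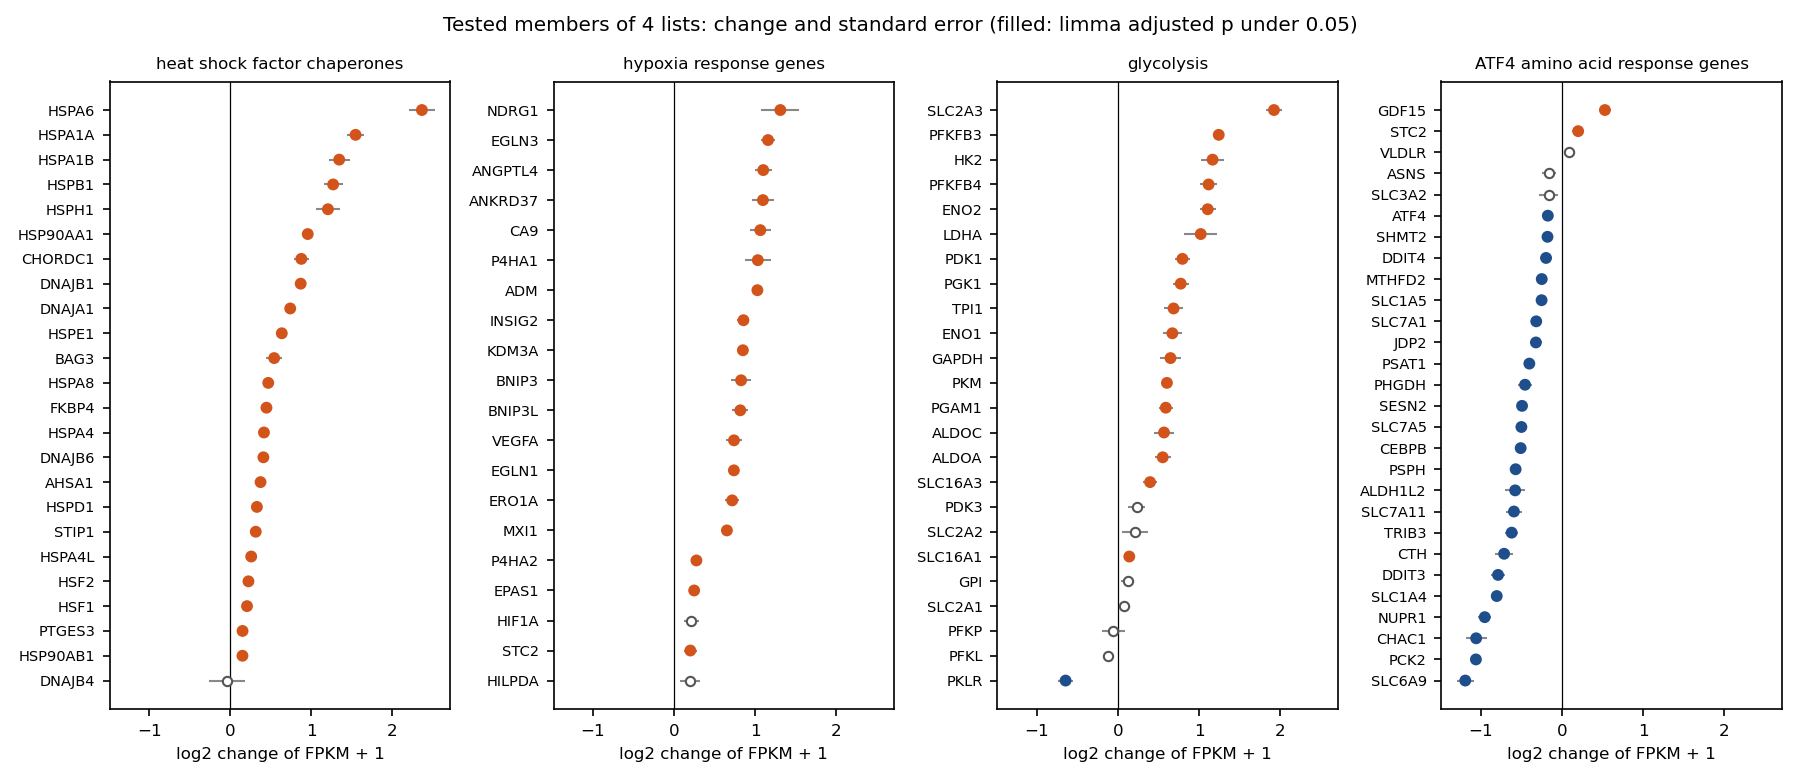
Log2 change of FPKM + 1, mixture against all 6 unexposed libraries, for each tested member of 4 lists; points are fitted changes, bars 1 standard error, and open points did not pass limma's adjusted p of 0.05. The heat shock, hypoxia and glycolysis members lie mostly to the right of 0, and 23 of 28 ATF4 response genes were called lower.

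Genes of amino acid supply under ATF4 moved the other way, with 23 of 28 called lower and 2 higher and a median of -0.47. The counts were 22 and 2 against replicates 1 to 3, and 23 and 1 against 4 to 6. PCK2, the mitochondrial form of phosphoenolpyruvate carboxykinase, had 42.2, 44.3 and 47.5 FPKM unexposed and 21.1, 21.3 and 19.8 in the mixture, a fall of 1.06 ± 0.05 (limma adjusted p 9.27e-11). SLC6A9, a glycine transporter, fell from 11.3, 13.4 and 15.5 to 5.63, 5.46 and 4.63 FPKM, SLC1A4, a transporter of serine and alanine, by 0.80, and NUPR1, a stress-induced chromatin protein, by 0.95. The members called higher were GDF15, a circulating stress cytokine that is also a p53 target, and STC2, a secreted glycoprotein also in the hypoxia list. GDF15 rose from 298, 347 and 386 to 470, 533 and 479 FPKM. Serine and one-carbon genes, which share PSPH and PSAT1 with this list, had 2 higher and 10 lower of 18.

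Folding genes of the endoplasmic reticulum fell in 14 of 25 and rose in 2, with a median of -0.19. MANF, a secreted folding factor, had 121, 125 and 131 FPKM unexposed and 84.04, 86.39 and 82.16 in the mixture, and SDF2L1, a partner of the lumenal HSP70, 113, 122 and 128 against 63.5, 73.1 and 65.5. PDIA4, a disulfide isomerase, fell by 0.55 ± 0.05 and CRELD2 by 0.79 ± 0.06. Of 20 aminoacyl-tRNA synthetases 6 rose and 9 fell, where 27.0% of all genes rose and 25.8% fell. Among those that fell was WARS, for tryptophan, by 0.81 ± 0.08.

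The NRF2 list depended on which unexposed set was used. Against all 6 libraries 2 of 20 were called higher and 7 lower, against replicates 1 to 3 the counts were 2 and 17, and against replicates 4 to 6 they were 10 and 6. TXNRD1, the selenium-containing reductase of thioredoxin, had means of 119 FPKM in the first and 38.5 in the second set, and 70.1, 68.2 and 69.5 in the mixture. Its change was -0.77 against the first and 0.83 against the second set. HMOX1, heme oxygenase, was lower against both, with 19.2, 28.2 and 40.8 FPKM unexposed and 13.9, 14.3 and 14.7 in the mixture, but by 1.38 in one case and 0.44 in the other. SLC7A11, the cystine transporter, fell by 0.59 ± 0.10.

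Metallothioneins, small metal-binding proteins, were called higher in 3 of 3 tested members. MT2A rose from 13.1, 16.8 and 19.8 to 38.9, 44.6 and 51.5 FPKM, and the sets were alike (1.39 and 1.41). MT1G and MT1E, close copies that may share reads, changed by 1.08 and 1.24 against replicates 4 to 6 and by 0.40 and 0.41 against 1 to 3. p53 targets were divided, with 10 of 24 higher and 6 lower, where 27.0% of all genes were higher and 25.8% lower. CDKN1A, the cell cycle inhibitor p21, had 54.0, 58.8 and 62.7 FPKM unexposed and 65.6, 63.4 and 70.8 in the mixture. TP53I3, a quinone reductase, fell by 0.80 ± 0.10.

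Glycolysis and hypoxia genes rose together. Of 20 hypoxia response genes 18 were higher and 0 lower, with a median of 0.82, and of 24 glycolysis genes 17 were higher and 1 lower, with a median of 0.60. SLC2A3, a high-affinity glucose transporter, had 9.17, 10.4 and 13.7 FPKM unexposed and 41.7, 40.8 and 48.5 in the mixture, a change of 1.92 ± 0.10. PFKFB3, which makes the allosteric activator of phosphofructokinase, rose from 3.04, 3.56 and 4.04 to 9.66, 9.99 and 9.53 FPKM, and the neuronal enolase ENO2 by 1.11 ± 0.10. ADM, a vasodilator peptide, had 4.99, 5.98 and 6.92 FPKM unexposed and 12.9, 13.1 and 13.2 in the mixture. EGLN1 and EGLN3, the oxygen sensors that mark hypoxia-inducible factors for breakdown, rose by 0.74 ± 0.05 and 1.16 ± 0.09, and the histone demethylase KDM3A by 0.85 ± 0.05. HIF1A itself did not pass, at 22.1, 26.1 and 33.5 FPKM unexposed and 31.0, 30.1 and 31.5 in the mixture. The single glycolysis member called lower was PKLR, the liver pyruvate kinase, at 3.91, 4.91 and 5.82 FPKM unexposed and 2.88, 2.76 and 2.59 in the mixture.

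Lipid synthesis genes fell more often than they rose, with 12 of 25 fatty acid and triglyceride genes lower and 5 higher and 14 of 24 cholesterol genes lower and 3 higher. SREBF1, the transcription factor of fatty acid synthesis, had 6.35, 6.56 and 7.01 FPKM unexposed and 4.53, 4.32 and 4.30 in the mixture. GPAM, the first acyltransferase of triglyceride synthesis, fell from 32.6, 37.3 and 42.1 to 22.2, 19.3 and 18.2 FPKM. ACSL5, which activates fatty acids, went the other way, from 30.9, 36.1 and 47.8 to 81.0, 85.7 and 93.6 FPKM. Coat proteins of lipid droplets were split: PLIN2 rose from 90.9, 128 and 157 to 263, 282 and 281 FPKM, whereas PLIN4 fell by 0.99 ± 0.06. PPARA, the fatty acid receptor, fell by 0.63 ± 0.05. Among 26 of its targets and oxidation genes 8 were higher and 6 lower, near the shares of all genes (27.0% and 25.8%). ACADVL, the first enzyme of long-chain oxidation, rose by 0.45 ± 0.04, and ANGPTL4, a secreted lipase inhibitor, by 1.10 ± 0.10.

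Amino acid breakdown and the urea cycle had 13 of 26 genes lower and 4 higher, with a median of -0.26. ASS1, argininosuccinate synthase, had 56.0, 57.0 and 63.4 FPKM unexposed and 33.7, 31.1 and 28.8 in the mixture, a fall of 0.88 ± 0.05. MAT1A, which makes S-adenosylmethionine in liver, fell by 0.81 ± 0.07 and SARDH, sarcosine dehydrogenase, by 0.91 ± 0.05.

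Detoxification genes moved in both directions. The counts that follow stand beside 27.0% higher and 25.8% lower over all genes tested. Of 16 cytochrome P450 genes 6 were higher and 7 lower. CYP2B6, the classical target of the receptor CAR, rose from 12.24, 13.27 and 15.99 to 18.48, 20.04 and 18.51 FPKM, and CYP3A5 by 0.64 ± 0.08, whereas CYP2D6, which has near-identical pseudogenes, fell by 0.80 ± 0.11. CYP1A1, the classical target of the aryl hydrocarbon receptor, had means of 4.67 FPKM in unexposed replicates 1 to 3 and 1.64 in 4 to 6, and 4.41, 4.74 and 3.91 in the mixture. It did not pass against all 6 libraries (0.47 ± 0.25, limma adjusted p 0.117), its change was -0.08 against the first set, and it rose by 1.02 against the second. Among 12 xenobiotic receptors 8 fell and 3 rose. AHR itself rose from 5.89, 6.44 and 7.41 to 9.78, 9.66 and 10.3 FPKM and the glucocorticoid receptor NR3C1 by 0.41 ± 0.06. Glutathione transferases had 3 higher and 5 lower of 13, with GSTA1 at 3.81, 5.01 and 6.90 FPKM unexposed and 3.06, 2.00 and 1.47 in the mixture; the near-identical GSTA2 may share its reads. AKR1B10, a reductase of retinal often high in liver tumours, fell by 2.11 against replicates 1 to 3, where its mean was 128 FPKM, and by 0.33 against 4 to 6, where it was 36.3; the mixture had 31.9, 27.0 and 27.1. AKR1D1, a bile acid enzyme, fell alike against both sets, by 1.19 and 1.13. The efflux transporter ABCC6 fell from 14.4, 15.2 and 16.7 to 7.61, 7.95 and 6.68 FPKM, and ABCG2 rose by 0.48 ± 0.07. Among bile acid genes 7 of 11 fell and 1 rose, SLC51A, a basolateral bile acid exporter, whose 2.16, 6.12 and 10.3 FPKM unexposed compare with 11.2, 12.5 and 13.5.

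The counts of this paragraph stand beside 27.0% higher and 25.8% lower over all genes tested. Against replicates 1 to 3 and 4 to 6, 58.1% and 53.0% of all genes were called in either direction. Of 21 liver transcription factors 4 were called higher and 9 lower. The balance turned on the unexposed set, with 9 and 9 against replicates 1 to 3 and 4 and 13 against 4 to 6. HNF4A, the central regulator of hepatocyte genes, had 43.1, 44.8 and 45.6 FPKM unexposed and 27.3, 28.4 and 26.2 in the mixture. Its fall of 0.69 ± 0.04 (limma adjusted p 2.82e-10) was alike against both sets (0.67 and 0.72). CEBPA, a factor of liver metabolism, fell from 29.8, 35.0 and 39.7 to 16.5, 17.1 and 15.8 FPKM and CEBPB by 0.51 ± 0.05. FOXA2, a pioneer factor, rose from 14, 15.4 and 16.4 to 23.3, 22.6 and 23.9 FPKM. Acute phase and plasma proteins had 12 higher and 2 lower of 22, with 16 and 1 against replicates 1 to 3 and 9 and 5 against 4 to 6. Apolipoproteins had 9 and 6 of 20, the lower count near the share of all genes, with 14 and 4 against the first and 8 and 8 against the second set. Complement genes had 6 and 6 of 21, near the shares of all genes, with 8 and 6 and then 6 and 11 against the sets.

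Coagulation genes had 6 higher and 3 lower of 19, near the shares of all genes. They had 13 higher and 3 lower against replicates 1 to 3 and 4 higher and 9 lower against 4 to 6. FGA, the fibrinogen alpha chain, averaged 41.9 FPKM in the first set and 94.1 in the second, and lay between them in the mixture at 73.1, 63.5 and 66.3. Antithrombin (SERPINC1) fell against both sets, from 136, 157 and 177 to 98.0, 85.8 and 85.9 FPKM. LCN2 (chromosome 9, 128149071 to 128153455), an iron-siderophore carrier of the acute phase, had 211, 257 and 367 FPKM unexposed and 110, 98.4 and 99.4 in the mixture. CCL20, a chemokine, had means of 51.1 and 155 in the unexposed sets and 244, 245 and 263 in the mixture. TFRC, the transferrin receptor, rose by 0.69 ± 0.08 and STEAP3, an endosomal iron reductase, fell by 0.62 ± 0.05.

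Growth genes also turned on the set. DNA replication genes had 14 higher and 2 lower of 33 against all 6 libraries, 27 and 2 against replicates 1 to 3 and 9 and 3 against 4 to 6. Mitosis genes had 5 higher and 5 lower of 30, with 18 and 4 against the first and 3 and 11 against the second set. Over all genes 27.0% were higher and 25.8% lower against all 6 libraries. Against the first and second set 58.1% and 53.0% were called in either direction. RFC3, a clamp loader subunit, had 4.18, 4.83 and 6.24 FPKM unexposed and 8.04, 7.41 and 7.52 in the mixture. CDC20, an activator of the anaphase ubiquitin ligase, fell from 11.4, 15.1 and 16.3 to 9.19, 7.45 and 8.46 FPKM. Proteasome subunits had 19 higher and 1 lower of 32, and 8 and 3 on TPM, so their count rests on the scaling. The clock repressor NR1D1 rose from 4.41, 5.76 and 6.59 to 13, 12.9 and 13.6 FPKM, and the clock gene CRY1 by 0.83 ± 0.07; of 15 clock genes 9 were higher and 2 lower. The linker histone HIST1H1C rose from 5.17, 7.39 and 8.34 to 20.4, 21.8 and 19.9 FPKM, and 6 of 7 tested histone genes were higher. Copies of histone genes are alike in sequence, so the division of reads between them is uncertain.

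Cytosolic ribosomal protein genes were higher in 46 of 50 members and lower in 0, with a median of 0.38. RPS3A had 480, 516 and 585 FPKM unexposed and 771, 724 and 771 in the mixture. Their share of all FPKM was 5.36% ± 0.36 (SD, n = 6) in unexposed and 6.30% ± 0.12 (n = 3) in mixture libraries. It was 4.954% to 5.1% in unexposed replicates 1 to 3, 5.633% to 5.772% in 4 to 6 and 6.225% to 6.444% in the mixture. An exact two-sided permutation test over 84 arrangements gave p = 0.0238, the smallest it allows, and 0.0595 after adjustment over 5 classes. The test takes the 6 unexposed libraries as 1 group, although they form 2 sets. Genes that are not protein-coding held 11.9% ± 0.57 and 13.5% ± 0.35, with the same exact p-values. Their share was 11.36% to 11.56% in unexposed replicates 1 to 3, 12.39% to 12.58% in 4 to 6 and 13.19% to 13.89% in the mixture. Of 40 nuclear genes of oxidative phosphorylation 28 were higher and 1 lower. COX6B1, a subunit of cytochrome oxidase, rose from 60.0, 69.3 and 79.6 to 110, 108 and 109 FPKM. UCP2 (chromosome 11, 73974667 to 73983307), a carrier of the inner mitochondrial membrane, was the most decreased protein-coding gene by the rule. It had 11.4, 15.7 and 21.3 FPKM unexposed and 4.17, 3.71 and 3.80 in the mixture, a fall of 1.76 ± 0.17. SLC25A27, a related uncoupling protein, rose by 1.32 ± 0.18. Mitochondrially encoded genes held 23.4% ± 1.1 of FPKM in unexposed and 23.3% ± 1.3 in mixture libraries (exact permutation p = 0.905).

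KLHDC7B (chromosome 22, 50545891 to 50551023), a kelch-domain protein, fell from 23.4, 26.4 and 33.8 to 8.24, 8.65 and 7.86 FPKM, alike in the 3 libraries and by 1.59 ± 0.10. SLC16A13 and SLC26A1, transporters of monocarboxylates and of sulfate, fell by 1.42 ± 0.12 and 1.37 ± 0.09. FNDC4, a secreted fibronectin-domain factor, fell by 1.95 against replicates 1 to 3 and by 0.76 against 4 to 6, since its unexposed means were 68.5 and 29.7 FPKM; the mixture had 18.5, 17.4 and 15.3. RGCC, a cell cycle regulator, rose by 1.98 against replicates 4 to 6 and by 1.17 against 1 to 3.

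**Figure D4:**
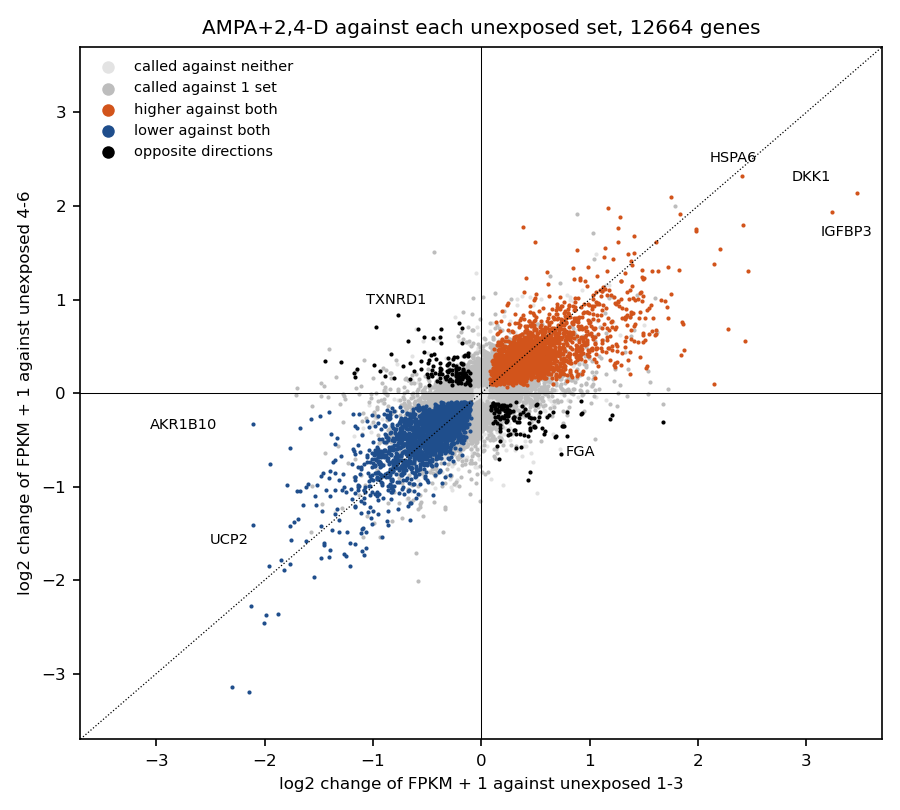
Each point is 1 of 12664 genes, with its log2 change of FPKM + 1 in the mixture against unexposed replicates 1 to 3 (horizontal) and 4 to 6 (vertical); the dotted line marks equal change. Most called genes lie in the upper right or lower left, and 252 genes, in black, were called in opposite directions.

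The 252 genes called in opposite directions against the 2 sets were 1.99% of those tested. By this choice the mixture lies between the set means. APOF, an apolipoprotein, averaged 9.501 and 22.23 FPKM in the unexposed sets and had 15.2, 15.8 and 16.6 in the mixture. SLC17A1 and MIXL1, a phosphate transporter and a homeobox factor, followed the same order, with means of 0.444 and 2.43 and of 2.27 and 5.61 FPKM. PLA2G2E, a secreted phospholipase, averaged 1.35 and 4.75 FPKM and had 1.66, 2.93 and 2.12 in the mixture. DCBLD2, a membrane receptor, ran the opposite way, with 43.87 and 13.04 FPKM in the sets and 19.47, 22.12 and 24.03 in the mixture. SPP1, the secreted matrix protein osteopontin, averaged 577 and 238 FPKM and had 389, 367 and 399. SNCG and GPAT3 averaged 3.42 and 0.866 and 18.6 and 7.97 FPKM. Against all 6 libraries the change of each of these genes lay within 0.20 of 0 on the log2 scale.

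Replicate 2 of the mixture differed from replicates 1 and 3 in a particular class of genes. It was at least 1 higher on the log2 scale than their mean in 215 genes and at least 1 lower in 58, while replicates 1 and 3 differed by that much in 138. Of the 215 genes 141 were annotated as antisense, 23 as miRNA and 9 as protein-coding. Over the 688 tested antisense genes the median difference from the unexposed mean was -0.45 and -0.47 in replicates 1 and 3 and -0.10 in replicate 2, where the AMPA libraries had -0.13 to -0.09 and the 2,4-D libraries -0.24 to -0.13. The same order held for 83 genes whose exons overlap by at least 50 bases a gene on the opposite strand that has at least 50 FPKM and 20 times their own unexposed level. These had medians of -0.44, -0.03 and -0.46 in mixture replicates 1, 2 and 3.

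**Figure D5:**
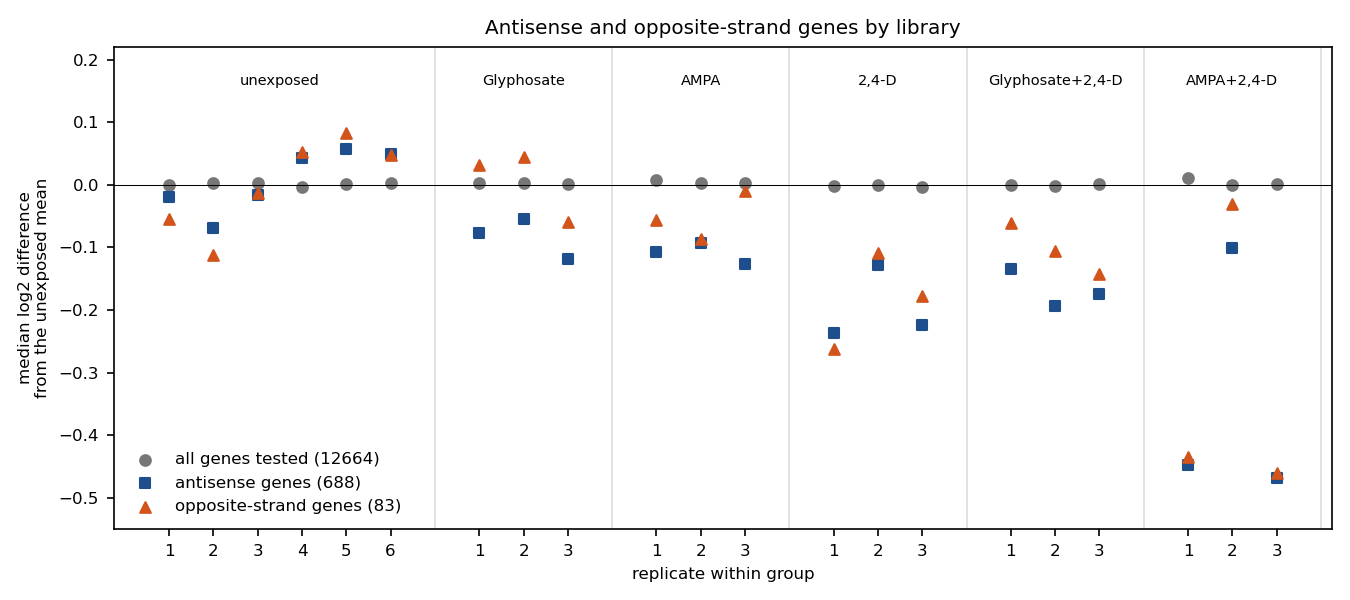
Median log2 difference from the mean of the unexposed libraries for all 12664 tested genes, 688 antisense genes and 83 genes lying opposite an abundant gene, in each of the 21 libraries (horizontal axis: replicate within group). Mixture replicates 1 and 3 lie at -0.44 to -0.47 in both classes, and mixture replicate 2 lies among the other exposed libraries.

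Of the antisense genes 323 (46.9%) were called lower in the mixture, against 25.8% of all genes, and of the 83 opposite-strand genes 53 (63.9%). With replicate 2 as the only exposed library these numbers were 92 (13.4%) and 12 (14.5%), against 13.2% of all genes. That fit assumes that the lone library varies like those of the other groups, and its lower calls over all genes also fell, from 3264 to 1673. Among the 9 protein-coding genes that were higher in replicate 2, 7 lay opposite an abundant gene: ATG10 opposite RPS23, SNX22 opposite PPIB, BEST1 opposite FTH1, CCDC152 opposite SELENOP, and GPS2, ATP6V1C2 and AC006030.1. The others were MT-ND6 and CBS. BEST1 (chromosome 11, 61949821 to 61965515), a chloride channel gene, had 6.12, 7.01 and 9.26 FPKM unexposed and 1.72, 4.68 and 1.19 in the mixture. ATG10, an autophagy gene, had 4.69, 6.59 and 8.47 unexposed and 1.49, 8.74 and 1.32, so replicate 2 alone lay above the unexposed range. MT-ND6 (14149 to 14673 of the mitochondrial genome), the protein-coding gene on the light strand, had 513, 548 and 578 FPKM unexposed and 163, 405 and 156 in the mixture. The labels do not state whether reads were counted by strand, so reads of a gene and of its antisense partner cannot be told apart, and the part of such reads in these values was not tested. Protein-coding genes with at least 5 FPKM were also ranked by their difference between replicate 2 and the mean of the others, as a description. TOMM7, a subunit of the mitochondrial import pore, had 16.2, 27.5 and 15.2 FPKM, COX14, an assembly factor of cytochrome oxidase, 13.2, 19.5 and 13.1, and ZNF524 6.22, 9.90 and 5.46. MAP3K8, a kinase upstream of ERK, was lower in replicate 2, at 7.47, 5.2 and 7.18 FPKM, as was GON7 at 8.90, 6.04 and 8.99.

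The 3 most increased noncoding genes under the naming rule were at low levels or repeated in the genome. RNA5-8SN2, a copy of 5.8S ribosomal RNA that shares reads with its other copies, had 0.337, 1.12 and 2.60 FPKM unexposed and 7.79, 6.87 and 6.16 in the mixture. MIRLET7A1, the hairpin gene of a let-7 miRNA, was at 0, 0 and 0.622 FPKM unexposed and at 4.26, 1.64 and 3.47 in the mixture. These were 6, 2 and 5 reads in the mixture and 0 or 1 in each unexposed library. MIRLET7A1 passed the filter only through the mixture libraries, so its place in the ranking rests on its rise. SNORD59A, a small nucleolar RNA, had 0, 2.09 and 3.44 against 12.1, 11.4 and 5.17. Of the most decreased, AC093503.2 (10.68, 13.95 and 19.97 FPKM unexposed) and the antisense gene AP003392.3 (10.84, 11.99 and 14.07) were low in replicates 1 and 3 (1.15 and 0.375, and 0.425 and 1.247) and less so in replicate 2 (10.66 and 6.502). AL928921.1 was low in all 3, at 4.41, 2.97 and 3.76 FPKM against 15.31, 16.05 and 19.52.

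Against cells given 2,4-D alone at the same concentration, limma called 0 genes (0.00%) at an adjusted p under 0.05; 1365 had an unadjusted p under 0.05, and voom on the recovered reads also called 0. Over all genes the median half-width of the unadjusted 95% interval was 0.164 in log2 units, and the lack of calls does not show that the 2 exposures act alike. The fit held the unexposed libraries as 1 group, so the gap between their sets widened the shared spread. With the sets fitted apart, the half-width for the mixture against either set was 0.136. A fit of only the mixture and 2,4-D libraries also called 0. The comparisons with AMPA and with glyphosate plus 2,4-D came from the same fit. The smallest p-values were for PAK1IP1, a ribosome assembly factor, with 24.1, 22.1 and 23.9 FPKM in the mixture and 19.9 on average with 2,4-D (0.22 ± 0.04, limma adjusted p 0.162), and DNAJB11, a lumenal co-chaperone (0.18 ± 0.03, 0.162). COL18A1, a basement membrane collagen, and ATAD3A, a mitochondrial ATPase, were lower, by 0.30 ± 0.06 and 0.25 ± 0.05 (limma adjusted p 0.218 for both). Without mixture replicate 2 the number of calls was 228, of which 180 were lower, and without replicate 1 or 3 it was 0.

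Against AMPA alone 372 genes (2.94%) were called, 100 higher and 272 lower in the mixture. Among protein-coding genes the called log2 differences furthest below 0 were those of ATG10 (-1.497), CCDC152 (-1.357), SNX22 (-1.041) and BEST1 (-0.916), each lower in mixture replicates 1 and 3 than in replicate 2 and each opposite an abundant gene. Without the 83 opposite-strand genes 95 were higher and 254 lower. GSTA2, a glutathione transferase, was higher, with 7.30, 4.70 and 4.81 FPKM in the mixture, 2.35 on average with AMPA and 9.02 as the unexposed median. SLC17A2, a phosphate transporter, had 35.4, 31.8 and 26.9 FPKM in the mixture and 18.7 with AMPA, and TECTB, a tectorin, 2.76, 2.82 and 2.14 against 1.35. MT-ATP8 was higher by 0.74 ± 0.15 through replicates 1 and 3, at 435, 309 and 485 FPKM against 244. These counts turn on single libraries: without mixture replicate 1 or 3 there were 0 calls, and without replicate 2 there were 804.

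Against glyphosate with 2,4-D 39 genes (0.308%) were called, 17 higher and 22 lower; without mixture replicates 1, 2 and 3 in turn the number was 3, 527 and 0. CYR61 was lower than in the other mixture, which averaged 42.2 FPKM, by 0.52 ± 0.09, and COL18A1 by 0.43 ± 0.06. VKORC1, the target of warfarin, and ZDHHC12, a palmitoyl transferase, were lower by 0.42 ± 0.09 and 0.46 ± 0.09. PTHLH, a peptide hormone of calcium balance, was higher, at 2.20, 2.28 and 2.22 FPKM against 1.27, as were ITGA10, an integrin subunit (2.85, 2.75 and 2.69 against 1.77), and NCEH1, a cholesterol ester hydrolase (15.6, 15.1 and 15.8 against 12.1). MT-ATP8 was higher by 0.74 ± 0.15.

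The interaction asks whether the mixture's change equals the sum of the changes with AMPA and with 2,4-D alone on the log2 scale. It was called in 4863 genes (38.4%), 2290 above and 2573 below the sum, and on TPM 3568 above and 1556 below. In the leading genes the 2 components alone already reached about the level of the mixture. DKK1 averaged 40.2 FPKM with AMPA, 31.2 with 2,4-D and 35.6 with both, against 4.804 unexposed, and its interaction was -2.78 ± 0.44. IGFBP3 averaged 23.9, 18.9 and 18.8 FPKM (-2.92 ± 0.44), AKAP12 195, 168 and 150 (-2.64 ± 0.26), and CYR61 40.05, 35.85 and 29.04 (-2.60 ± 0.12). Genes that fell showed the reverse sign. FNDC4 averaged 13.5 FPKM with AMPA, 15.9 with 2,4-D and 17.0 with both (1.75 ± 0.40), and DKK4 2.50, 2.60 and 3.29 (1.85 ± 0.32). GSTA1 averaged 1.09, 1.57 and 2.18 FPKM (1.94 ± 0.32) and GSTA2 2.35, 4.08 and 5.61 (1.94 ± 0.29). All 3 changes in this contrast are taken from the same 6 unexposed libraries, so a shift common to all exposed libraries enters it with the opposite sign.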

How the data were processed

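RNA sequencing levels were analysed in 21 libraries of C3A cells, 9 of them in the main comparison. The authors deposited FPKM values per gene, and the submitters' processing notes name HISAT2 2.0.5, featureCounts 1.5.0-p3 and GRCh38. Whether counting used strand, and the total that FPKM was scaled to, is not given in the sources used here. A SMARTer kit was used for the libraries, after QIAzol and column extraction of total RNA, per the labels.

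FPKM tables were joined by gene identifier, and 12664 genes that reached an FPKM of 1 in 3 or more of the 9 libraries were kept; 5 of them, absent from a table of another exposure, were set to 0 there. limma 3.58.1 (trend, R 4.3.3) was fitted to log2(FPKM + 1) of all 21 libraries with 6 group means, or 7 for the unexposed sets apart, with Benjamini-Hochberg adjustment over all genes; fold changes are on this scale, which understates those of low genes. Reads were recovered from the FPKM steps (100% of values within 0.1 of whole reads) and tested with voom as an alternative. The steps were tested on simulated data.

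Gene lists and the comparison were chosen with earlier results of these data known. Named genes are those of largest change per comparison among called genes (12 each way against unexposed, 4 otherwise), up to 4 per list by smallest p, and CYP1A1, CYP2B6, CDKN1A and HMOX1. DNAJB4, HSPA1B, HIF1A, PKLR, MYC, STC2 and the genes higher in mixture replicate 2 were named after their values were seen. Alternatives were no filter, a pseudocount of 0.1, other scalings, each replicate left out, a replicate block and replicate 2 alone. The removal of opposite-strand genes (GENCODE annotation on GRCh38, which also gives the coordinates) and the counts per list under other settings were added after seeing the data. Some genes that the rule names are not reported here.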

Additional observations from a re-analysis of the deposited data

Results flagged for a closer look

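In 5 of 257 sets of unexposed libraries examined, 1 library lay far from the other 5 by Dixon's criterion, which chance meets in about 1 of 20. The high values were 0.622 FPKM in MIRLET7A1, where the other unexposed libraries were at 0, 19.5 FPKM in AL928921.1 and 11.4 FPKM in COL18A1. The low values were 183 FPKM in HPD, an enzyme of tyrosine breakdown, and 78.2 FPKM in EPCAM, an epithelial adhesion molecule.

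Of the 4863 genes with a called interaction, the 4 protein-coding genes furthest above and the 4 furthest below 0 are given. In these the change with AMPA and 2,4-D together differed from the sum of the changes with each alone, by limma's interaction term on the log2 scale. It lay above the sum in GSTA1 (1.94, adjusted p 0.000157), GSTA2 (1.94, 5.34e-05), DKK4 (1.85, 0.00022) and FNDC4 (1.75, 0.00201). It lay below the sum in IGFBP3 (-2.92, 6.7e-05), DKK1 (-2.78, 9.74e-05), AKAP12 (-2.64, 7.42e-07) and CYR61 (-2.60, 2.73e-10). All 3 changes share the 6 unexposed libraries.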

How the results depend on the processing

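The counts against unexposed cells moved under few settings: 2209 higher on TPM, and, with mixture replicate 2 as the only exposed library, 1909 higher, 1673 lower and 4399 called against unexposed replicates 4 to 6. The comparisons between exposures depended on the processing. Against AMPA the calls numbered 171 without the filter, 232 on TPM, 0 with only those groups fitted, 951 with a replicate block, 0 with replicate 2 alone and 0 to 804 with a mixture library left out. Against 2,4-D they numbered 1 with the replicate block and 0 to 228 with a library left out. Against glyphosate with 2,4-D they numbered 18 without the filter, 23 on TPM, 0 with only those groups fitted, 416 with the replicate block, 21 with voom, 0 with replicate 2 alone and 0 to 527 with a library left out. The cause was not tested. Correlations, over all genes, of deviations from the group means cannot decide whether replicate numbers pair libraries. For same-numbered mixture and unexposed libraries these correlations were -0.067, -0.149 and -0.046. With same-numbered 2,4-D libraries they were 0.04, 0.093 and 0.018, and with AMPA libraries -0.022, 0.012 and 0.016. With libraries of glyphosate and 2,4-D they were -0.031, -0.072 and 0.038. No paired analysis was possible against unexposed replicates 4 to 6 because they share no replicate number with the mixture. CYP1A1 turned from 0.47 to -0.078 with the replicate block and with unexposed replicates 1 to 3 alone. Of 4299 pairings of a named gene and a setting, 4230 kept direction and side of the threshold, 64 lost the call, 3 gained it and 2 reversed.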

Other observations

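Small groups outside the lists described above gave mixed values. Of 15 interferon-stimulated genes 4 rose and 6 fell in the mixture, where 27.0% of all genes rose and 25.8% fell. IFI35 fell from 6.30, 7.57 and 9.30 (lowest, median and highest unexposed) to 3.39, 3.63 and 3.57 FPKM, and IFITM3, a restriction factor at endosomes, from 32.0, 33.6 and 45.8 to 24.04, 20.67 and 19.79. ISG15, a ubiquitin-like modifier, went the other way, from 16.01, 22.01 and 27.1 to 32.9, 37.2 and 34.6 FPKM. Of 18 oncofetal and progenitor genes 9 rose and 1 fell, and 4 and 5 on TPM. PEG3, an imprinted zinc finger gene, averaged 59.4 and 100.2 FPKM in the 2 unexposed sets and had 140, 132 and 142 in the mixture.

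Among translation factors 17 of 33 rose and 4 fell, and 11 and 10 on TPM. EIF4EBP1, a repressor of cap-dependent translation, fell from 64.9, 71.4 and 81.5 to 51.7, 50.3 and 54.5 FPKM. BHLHE40, a clock repressor also induced by hypoxia, rose from 11.2, 15.4 and 22.6 to 40.4, 41.7 and 42.0 FPKM.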
